A study of Mus musculus with 22 samples.

Results

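The 6 horizontal fractions of a mouse brain were compared as 2 groups of neighbouring slabs, fractions 1-3 against fractions 4-6. They were 6 of the 22 fractions of the series and were taken by the section plane and the fraction number in the sample titles. In Transcriptome Tomography a brain is sectioned from end to end, consecutive sections are collected as 1 fraction (a slab of tissue), and the RNA of every fraction is hybridised to its own microarray. All 6 fractions came from the brain of 1 male C57BL/6J mouse (mouse 2 of 3), an inbred laboratory strain, and both groups share this brain. The titles give an age of 7 days after birth, while the age field of the same samples gives 3 days, a conflict that the labels do not settle. The other 16 fractions, 10 coronal and 6 sagittal, came from the other 2 mice and are used here only for reference. Each fraction was 1 slab on 1 array, so the 3 slabs of a group are neighbouring pieces of 1 brain and not replicates of a condition. The p-values below therefore measure a difference between groups against the spread between slabs of the same group, with no spread between animals. Whether fraction 1 was the dorsal or the ventral end is not given in the labels.

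A horizontal cut passes through the brain at a constant height, so the successive slabs run between its dorsal and ventral surfaces. The cerebral cortex and the hippocampus lie dorsally, the striatum and the thalamus lie deeper, and the hypothalamus, the ventral midbrain and the brainstem lie ventrally. In the first weeks after birth oligodendrocytes begin to wrap axons in myelin, and the deep fibre tracts and the brainstem do so earlier than the cortex. Emx1 and Neurod6 encode transcription factors of cortical excitatory neurons, Mobp encodes a protein of the myelin sheath, and Avp encodes the hypothalamic hormone vasopressin. In whole slabs, fewer cells of a type and less RNA per cell cannot be told apart.

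The windows around the transcription starts of these 4 genes are shown because they are the markers chosen for the comparison, for cortical neurons, myelin and the hypothalamus. Each runs from 250 bases before to 50 bases after the start in the RefSeq annotation of GRCm38.p6, is written 5′ to 3′ on the strand of the gene and lies at chr6:85187681-85187980 (plus strand) for Emx1, chr6:55681214-55681513 (minus) for Neurod6, chr9:120149492-120149791 (plus) for Mobp and chr2:130582539-130582838 (minus) for Avp. Capitals mark matches on either strand to the E-box CANNTG, the core that neurogenic bHLH factors such as Neurod6 bind, and to ACAAAG with its reverse complement CTTTGT, a core of SOX factor sites. No base lies in both motifs.
Emx1: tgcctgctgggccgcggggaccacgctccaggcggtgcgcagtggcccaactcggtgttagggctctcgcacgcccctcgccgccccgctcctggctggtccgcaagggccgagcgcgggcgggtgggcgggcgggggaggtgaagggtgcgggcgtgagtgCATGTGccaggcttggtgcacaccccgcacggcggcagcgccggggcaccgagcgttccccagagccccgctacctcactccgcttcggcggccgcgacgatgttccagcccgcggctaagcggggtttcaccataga
Neurod6: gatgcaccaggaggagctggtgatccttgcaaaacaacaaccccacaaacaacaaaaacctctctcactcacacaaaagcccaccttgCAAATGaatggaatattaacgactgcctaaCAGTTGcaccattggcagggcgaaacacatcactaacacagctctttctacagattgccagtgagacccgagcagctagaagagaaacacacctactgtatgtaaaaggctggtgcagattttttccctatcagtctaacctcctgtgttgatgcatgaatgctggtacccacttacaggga
Mobp: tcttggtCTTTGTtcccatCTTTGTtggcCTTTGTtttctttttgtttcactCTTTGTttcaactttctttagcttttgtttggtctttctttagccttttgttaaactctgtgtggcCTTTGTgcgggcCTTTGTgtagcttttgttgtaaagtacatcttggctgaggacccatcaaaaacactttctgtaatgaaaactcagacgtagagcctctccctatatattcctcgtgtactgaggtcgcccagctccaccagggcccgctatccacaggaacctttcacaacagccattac
Avp: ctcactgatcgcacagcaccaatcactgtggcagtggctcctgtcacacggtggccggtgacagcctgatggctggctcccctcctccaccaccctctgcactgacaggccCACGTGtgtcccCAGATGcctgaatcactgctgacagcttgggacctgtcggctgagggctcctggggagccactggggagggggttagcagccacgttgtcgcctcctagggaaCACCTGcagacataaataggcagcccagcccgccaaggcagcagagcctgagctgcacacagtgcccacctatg

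Among 32851 such windows, 72.3% held at least 1 E-box and 18.7% at least 1 ACAAAG. The Emx1 window held 1 E-box, that of Neurod6 held 2 and that of Avp held 3, while the Mobp window held none. The Mobp window held 6 matches to ACAAAG, all as CTTTGT, and 0.00304% of the windows, that is Mobp itself, held that many. None of the other 3 windows held an ACAAAG match. These matches are letters in a window and no measurement of binding.

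Levels are log2 of the processed signal of a probe minus the 75th percentile of its array, so a level of 0 is the 75th percentile and a difference of 1 is a 2-fold difference in signal. Agilent arrays carry spike-in transcripts (E1A) that are added in known amounts, and the slope of their signals against those amounts was out of the range allowed by the scanner software on fractions 1, 2 and 3 (0.818 to 0.891) and within it on fractions 4, 5 and 6 (1.00 to 1.01). Spike-in a107 read 7.90, 8.11 and 7.93 (log2 intensity) on fractions 1, 2 and 3 and 3.63, 3.15 and 3.67 on fractions 4, 5 and 6, a difference of −4.49. Of the other 9 spike-ins, 7 differed by −1.13 to −1.28 and the 2 dimmest by −0.20 and −0.34. More probes were above background on fractions 1-3 (36865 to 41942) than on fractions 4-6 (29966 to 32117). Within the horizontal series the slope and the group cannot be told apart. The slope was also out of range on coronal fractions 1 and 2 of 10 and on sagittal fractions 1 and 3 of 6, cut along other axes. Differences between in-range and out-of-range arrays in those series are given beside some of the results, for genes or as medians of lists. Where none is given, such a difference is not excluded. Coronal fractions 1 and 2 are neighbouring slabs at the start of that series, so the coronal values mix slope with position in the brain. In the sagittal series the slope goes with position in part. All 6 horizontal arrays were on 1 slide. The comparison was limited to RefSeq probes above background on all 6 arrays, which left 19157 probes and 14204 of 20125 genes, each gene read from its brightest such probe.

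The cortical markers were high at the start of the series and the vasopressin gene at its end. Emx1 read 1.82, 1.04 and 0.11 on fractions 1, 2 and 3 and −0.45, −0.79 and −1.06 on fractions 4, 5 and 6. It fell at every step, the groups did not overlap, and the group difference (fractions 4-6 minus fractions 1-3) was −1.76 (SE 0.40, limma adjusted p = 0.0296). Neurod6 was lower at every step too, from 2.98, 2.56 and 2.27 to 2.14, 1.29 and 0.09, with the groups apart, but its difference of −1.43 (SE 0.46) did not pass the test (limma adjusted p = 0.0799). It passed with no scaling (limma adjusted p = 0.0226), with a linear term in fraction number (0.0240), over 22 arrays (0.0290) and without fraction 4 (0.0210). It passed in no other setting. Mobp read −2.48, −2.71 and 1.29 on fractions 1-3 and 3.30, 4.92 and 3.55 on fractions 4-6. It was lowest on fractions 1 and 2, already higher on fraction 3 and highest on fraction 5, and its difference of 5.23 (SE 0.97, 37.5-fold) was the largest of any gene called higher in fractions 4-6 (limma adjusted p = 0.0146). Avp read −2.92, −4.72 and −2.14, then −4.04, 0.83 and 5.39. It was below background on fraction 2 and therefore not tested, its groups overlapped through fraction 4, and its high values lay on fractions 5 and 6. Within fractions 4-6, where the slope was in range on every array, Emx1, Neurod6 and Avp kept the direction of their group difference step by step, and Mobp did not. The calls were not stable to the loss of 1 slab. Emx1 lost its call without fraction 1, 2, 5 or 6 (adjusted p up to 0.135) and Mobp without fraction 1, 2 or 5 (up to 0.0967).

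**Figure D1:**
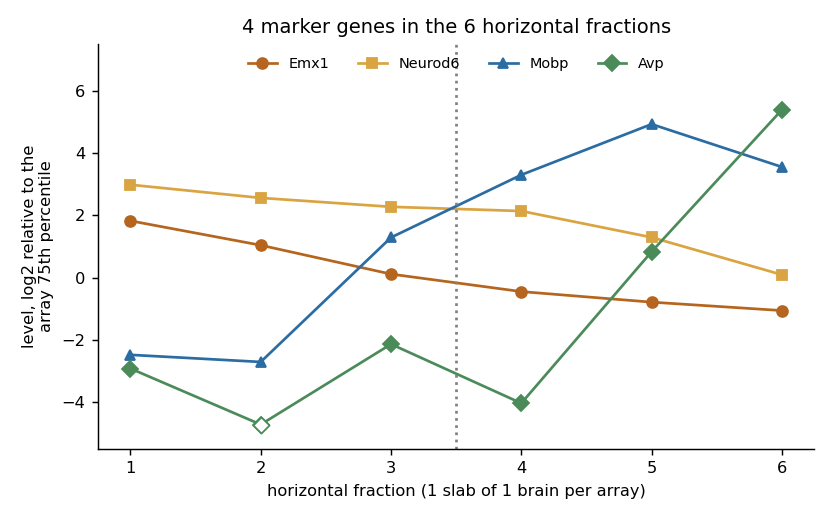
Levels of the 4 marker genes (log2 relative to the 75th percentile of each array) against the number of the horizontal fraction, 1 array per point, with no error bar because each slab has 1 array. The dotted line divides fractions 1-3 from fractions 4-6 and the open symbol marks the 1 array on which Avp was below background. Emx1 and Neurod6 fall from left to right, Mobp peaks at fraction 5 and Avp at fraction 6.

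At the level of probes, 3.64% of the 19157 were called higher in fractions 1-3 and 7.20% higher in fractions 4-6. Of the 14204 genes, 1589 (11.2%) were called at an adjusted p under 0.05 (limma, Benjamini-Hochberg over all probes tested). Of these, 511 were higher in fractions 1-3, which is 3.60% of the genes tested, and 1078 were higher in fractions 4-6, which is 7.59%. In all 1589 the 3 values of 1 group lay outside those of the other. Groups that do not overlap were common: 7.68% of all genes tested lay higher and apart in fractions 1-3 and 29.8% in fractions 4-6. The median difference of all genes was 0.23 under the scaling used, −0.02 with the arrays centred on their medians, 0.31 after quantile normalization and 0.30 with no scaling, so a gene with a difference near 0.23 kept pace with the bulk. The split of calls also changed with the processing. Centring on the median called 540 genes higher in fractions 1-3 and 271 higher in fractions 4-6, no scaling called 416 and 494, and quantile normalization 428 and 2292. These totals of the 14204 genes, and not 3.60% and 7.59%, are the reference for counts of list members given below for those settings. With only the probes in the upper part of the levels tested, 201 and 877 were called. Of the 511 genes, 254 lay in the lowest of 4 equal classes of level, against 228 of the 1078. Leaving out 1 fraction changed the total from 1589 to 353 (without fraction 2), 400 (without fraction 5), 725 (without fraction 1), 867 (without fraction 4), 918 (without fraction 6) and 2810 (without fraction 3). The lowest totals were those without fraction 2 or fraction 5, each the middle slab of its group.

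The order within fractions 4-6 was the same as the group difference for a minority of the called genes. Of the 511 genes called higher in fractions 1-3, 77 (15.1%) went on falling from fraction 4 to 5 to 6, 98 (19.2%) rose at both steps and 336 did neither. Of the 1078 called higher in fractions 4-6, 244 (22.6%) went on rising, 68 (6.31%) fell at both steps and 766 did neither. Among the 12615 genes not called, 19.5% went on and 15.2% ran the opposite way. The differences between these shares were not tested. Within fractions 1-3, where the slope was out of range throughout, 16.4% of the former, 34.3% of the latter and 23.8% of the genes not called ran in the direction of the group difference at both steps, while 2.54%, 8.63% and 12.2% ran the opposite way.

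**Figure D2:**
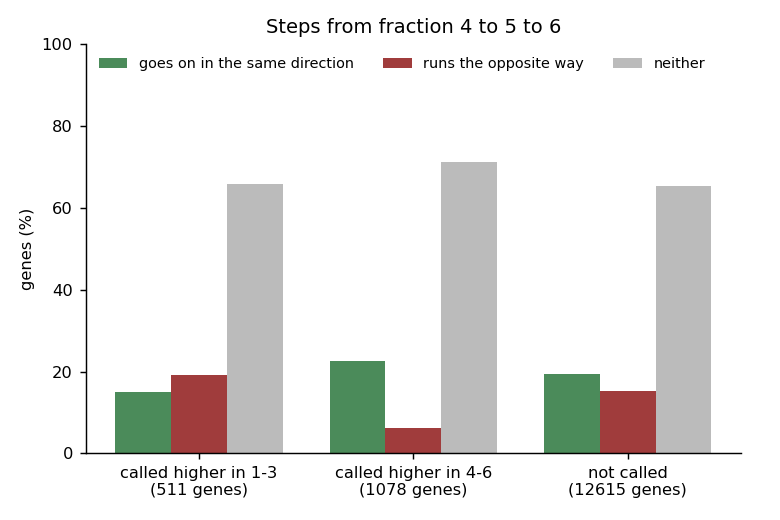
Share of genes (%) whose levels from fraction 4 to 5 to 6 go on in the direction of the group difference, run the opposite way at both steps, or do neither, for genes called higher in fractions 1-3 (511), called higher in fractions 4-6 (1078) and not called (12615). The bars that go on stand at 15.1%, 22.6% and 19.5%.

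The genes with the largest differences toward fractions 1-3 were not cortical genes. Tssk5, which encodes a testis-specific serine kinase, read 4.39, 4.77 and 4.72 on fractions 1-3 and −4.09, −3.47 and −3.49 on fractions 4-6, a difference of −8.31 (SE 0.23, limma adjusted p = 2.50e-06). Tbx22, a T-box factor of palate development, differed by −6.77 and Cd300lf, a receptor of myeloid cells, by −6.57. The other members of the 10 largest, with differences from −6.25 to −6.56, were Shc4, St6galnac1, Dcaf12l2, Slfn9, Gm10375, BC061237 and Cabp5, the last a calcium-binding protein of the retina. Of the 4 with another tested probe, that of Slfn9 was called too (−3.92) and those of Shc4 (0.34), St6galnac1 (−0.76) and Dcaf12l2 (−0.38) were not. In all 10 genes the step from fraction 3 to fraction 4 was larger than any step within a group, and their calls held without any 1 fraction. None went on falling within fractions 4-6, and 5 of them (Cd300lf, Shc4, St6galnac1, Dcaf12l2 and Cabp5) rose at both steps.

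The same genes separated the arrays by slope in the other 2 brains. For Tssk5 the in-range arrays were lower than the out-of-range arrays by −6.98 in the coronal and −6.54 in the sagittal series, and for the other 9 the values lay from −4.67 to −5.99 and from −4.13 to −4.79. Of the 511 genes called higher in fractions 1-3, 243 (47.6%) were lower by at least 1 log2 unit on the in-range arrays of both other series, against 265 of all 14204 genes tested (1.87%). These 243 had a median difference of −2.90 in the horizontal series, and 25 of them went on falling within fractions 4-6 while 60 rose at both steps. The remaining 268 had a median difference of −1.33, and 52 went on falling while 38 rose. Of the 1078 genes called higher in fractions 4-6, 53 (4.92%) were higher by at least 1 on the in-range arrays of both other series, against 0.577% of all genes. Among these 53, Pmch, a hypothalamic peptide gene, had the largest difference in the horizontal series. It was followed by Slurp2, which encodes a secreted Ly6 protein of epithelia, with −2.31, −2.87 and −2.83 against 1.17, 1.17 and 1.25 in the horizontal series and in-range arrays higher by 2.80 in the coronal and 3.16 in the sagittal series.

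**Figure D3:**
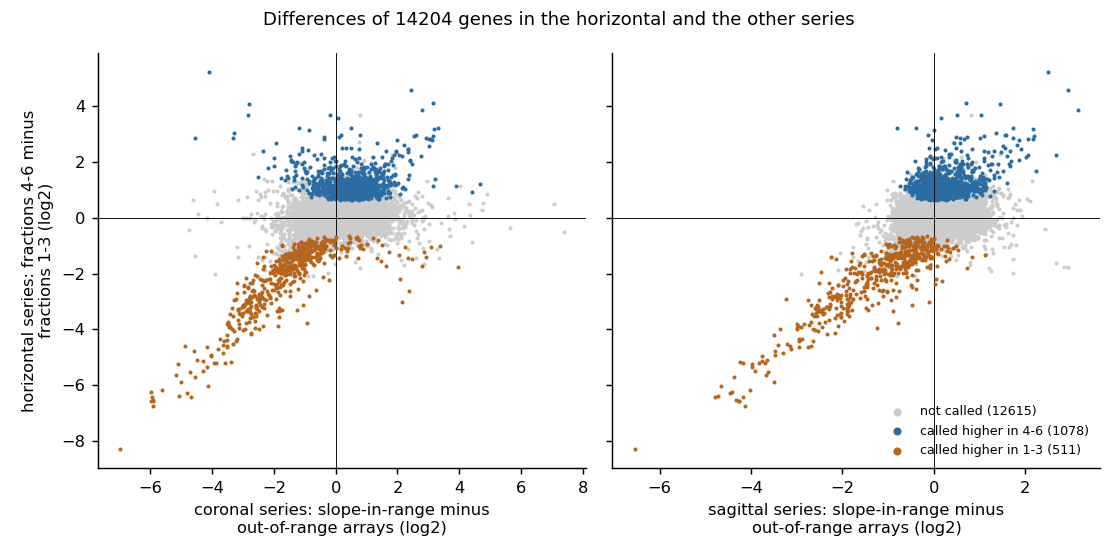
Difference of each of the 14204 genes between horizontal fractions 4-6 and 1-3 (log2, vertical axis) against the difference between arrays with the spike-in slope in and out of range in the coronal (8 and 2 arrays) and sagittal (4 and 2 arrays) series (log2, horizontal axes). Each point is 1 gene, coloured by its call in the horizontal series. The out-of-range coronal arrays are neighbouring slabs, so the coronal axis mixes slope with position. Of the 511 genes called higher in fractions 1-3, 243 lie at or below −1 on both horizontal axes, down to Tssk5 at −8.31 on the vertical axis, and 53 of the 1078 genes called higher in fractions 4-6 lie at or above 1 on both.

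Another RefSeq probe was tested for 116 of the 511 genes called higher in fractions 1-3, and for 60 of them (51.7%) every other probe had a difference of the opposite sign, while another probe was called the same way for 17. For the genes called higher in fractions 4-6 the counts were 277 genes with another probe, 29 with every other probe opposite and 91 with another probe called the same way. Over all 3574 genes with a second tested probe, 23.8% had every other probe opposite. The second probe of Mobp was called as well (3.80, limma adjusted p = 0.00607), and that of Shc4 was not (0.34, limma adjusted p = 0.466). What part probe binding has in these differences was not tested.

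Of 30 transcription factors and related genes of cortical projection neurons, 29 were tested, 6 were called higher in fractions 1-3 and 1 higher in fractions 4-6, against 3.60% and 7.59% of all genes. Their median difference was −0.50 beside 0.23 for all genes, 23 of the 29 were negative, 16 were highest on fraction 1, and 15 kept the order of their difference within fractions 4-6. Fezf2, a factor of subcerebral projection neurons, fell from 0.80, 0.37 and 0.31 to −0.45, −0.71 and −1.81, a difference of −1.48 (SE 0.35, limma adjusted p = 0.0333). In the fit over all 22 arrays Fezf2 was not called (limma adjusted p = 0.347), and with the slope as a covariate its difference turned to 0.51. Mef2c, an activity-regulated factor, did not pass the test (−1.44, limma adjusted p = 0.0706), and its values on fractions 3 and 4 (0.04 and 0.11) overlapped. None of the 29 was lower by 1 or more on the in-range arrays of both other series, and in the coronal series the in-range arrays were higher for Emx1 (3.95) and Fezf2 (2.46), while in the sagittal series they differed by −0.15 and −0.43. The medians of the list in the coronal and sagittal series were 1.66 and −0.18. The count of called members ran from 0 without fraction 2 and 0 without fraction 5 to 8 without fraction 3 or fraction 4, with 1 without fraction 1 and 3 without fraction 6. Fezf2 lost its call without fraction 1, 2 or 5 (adjusted p up to 0.128).

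Of 14 genes of hippocampal neurons tested, 2 were higher in fractions 1-3 and 1 in fractions 4-6, against 3.60% and 7.59% of all genes, with a median difference of 0.05 (−0.20 with arrays centred on the median). Pou3f1, a POU factor that cortical neurons share, fell at every step, from 3.74, 3.30 and 2.58 to 1.95, 1.81 and 1.63, a difference of −1.41 (SE 0.29, limma adjusted p = 0.0223). Bok, a BCL2 family member, was higher in fractions 1-3 (−1.01, limma adjusted p = 0.0259) and Wfs1, a protein of the endoplasmic reticulum, in fractions 4-6 (1.36, limma adjusted p = 0.0127). Bhlhe22, a bHLH factor of cortical neurons that is listed with the tectal factors too, was higher in fractions 1-3 (−1.10, limma adjusted p = 0.0417) and went on falling. Pou3f1 and Bhlhe22 lost their calls without fraction 1, 2, 5 or 6 (adjusted p up to 0.115 and 0.153), Bok without any fraction but 3 (up to 0.122) and Wfs1 without fraction 2 or 5 (up to 0.0705). Between 0 (without fraction 2 or fraction 5) and 5 (without fraction 3) of the 14 were called when 1 slab was left out, with 1 without fraction 1 and 1 without fraction 6.

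Myelin genes were highest on fraction 5. Of 28 genes of the myelin sheath and its synthesis, 25 were tested, 17 were called higher in fractions 4-6 and 2 higher in fractions 1-3, against 7.59% and 3.60% of all genes, and their median difference was 1.33 beside 0.23 for all genes. Fraction 5 held the highest value for 17 of the 25, so only 2 went on rising to fraction 6. Mag, an adhesion molecule of the inner myelin membrane, read −1.20, −0.61 and 1.03, then 3.27, 4.85 and 3.40, a difference of 4.10 (SE 0.60, limma adjusted p = 0.00506). It was already higher on fraction 3 than on fractions 1 and 2, and its groups did not overlap. In the coronal series the in-range arrays were lower for Mobp (−4.12) and Mag (−2.80), opposite to the horizontal difference, and in the sagittal series they were higher (2.51 and 1.44), in the same direction. The medians of the list were −1.39 and 0.58. The count of called members was 1 without fraction 2, 4 without fraction 5, 10 without fraction 1, 10 without fraction 6 and at most 18, without fraction 3. Mag lost its call without fraction 2 (adjusted p 0.0575). With arrays centred on the median, 5 of the 25 were called higher in fractions 4-6, against 271 of all 14204 genes at that setting.

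Of the 25 myelin genes tested, 2 were called higher in fractions 1-3, against their list, and Ermn, a cytoskeletal protein of oligodendrocytes, was 1 of them. On the in-range arrays of both other series, 2 of the 25 were lower by at least 1 log2 unit. Ermn read 6.41, 5.24 and 5.85 on fractions 1-3 and 1.89, 1.96 and 1.02 on fractions 4-6 (−4.21, SE 0.35, limma adjusted p = 0.000240). Its in-range arrays were lower by −3.51 in the coronal and −3.49 in the sagittal series, and its other probe differed by 0.50 the other way without passing the test (limma adjusted p = 0.315). Of 13 oligodendrocyte precursor genes tested, 4 were higher in fractions 4-6 (against 7.59% of all genes, and 1 with arrays centred on the median), with a median of 0.78. Sox10, the factor that drives the oligodendrocyte lineage, differed by 1.85 (SE 0.38, limma adjusted p = 0.0217), and Cspg4, a proteoglycan of precursors, by 1.18 (limma adjusted p = 0.0138). Gpr17, a receptor of cells about to mature, read 2.43, 3.64 and 4.70, then 5.20, 5.44 and 5.04, and its difference of 1.64 did not pass the test (limma adjusted p = 0.0641). Of the 13, 12 were highest on fraction 5. Without fraction 2 or fraction 5 none of the 13 was called, without fraction 1 there were 2, without fraction 4 there were 2, and without fraction 3 there were 8. Sox10 and Cspg4 lost their calls without fraction 2 or 5 (adjusted p up to 0.108 and 0.0754).

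Striatal genes were high from fraction 4 on. Of 20 genes of medium spiny neurons tested, 11 were called higher in fractions 4-6 and none higher in fractions 1-3, against 7.59% and 3.60% of all genes, with a median difference of 1.27, and 10 were highest on fraction 4. The medians of in-range minus out-of-range arrays for the list were 0.98 in the coronal and −0.04 in the sagittal series. Penk, the precursor of enkephalin, read 1.30, 1.23 and 2.68, then 5.02, 5.54 and 5.38, a difference of 3.57 (SE 0.38, limma adjusted p = 0.000856) that held without any 1 fraction. Ppp1r1b, the dopamine-regulated phosphoprotein DARPP-32, read 0.55, 1.04 and 3.19, then 4.62, 4.41 and 4.17. It was higher in fractions 4-6 by 2.80 (SE 0.59, limma adjusted p = 0.0227) but fell at both steps within them. Adora2a, an adenosine receptor of the indirect pathway, read −3.36, −1.63 and −1.08, then 0.91, 1.03 and −0.62 (2.47, limma adjusted p = 0.0402). Zfp503, a zinc finger factor, was higher by 1.70 (limma adjusted p = 0.0237) and went on rising to fraction 6. The called count was 1 without fraction 1, without fraction 2 or without fraction 5, 6 without fraction 4 and 14 without fraction 3. It was 2, both higher in fractions 4-6, with arrays centred on the median, against 271 of all 14204 genes at that setting. Ppp1r1b and Zfp503 lost their calls without fraction 1, 2 or 5 (adjusted p up to 0.130 and 0.126) and Adora2a also without fraction 4 (up to 0.155).

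Of 12 genes of midbrain dopaminergic neurons tested, 9 were called higher in fractions 4-6 and 1 higher in fractions 1-3, against 7.59% and 3.60% of all genes, with a median of 1.25. With arrays centred on the median, 4 were called higher in fractions 4-6 and none higher in fractions 1-3, against 271 and 540 of all 14204 genes at that setting. The in-range minus out-of-range medians were 0.11 in the coronal and 0.43 in the sagittal series, and those differences of Slc6a3 itself were 3.15 and 0.70. Slc6a3, the dopamine transporter, read −2.96, −3.18 and −2.61, then 1.65, 1.90 and 0.04 (4.11, SE 0.45, limma adjusted p = 0.00101). Th, the rate-limiting enzyme of catecholamine synthesis, was level within fractions 1-3 (−0.19, −0.03 and −0.01) and read 2.92, 3.19 and 1.74 on fractions 4-6 (2.69, SE 0.35, limma adjusted p = 0.00269). Ddc, the decarboxylase that acts after it, rose by 2.25 (limma adjusted p = 0.00515) and went on rising. Dlk1, a membrane protein of some dopaminergic and hypothalamic neurons, read 0.90, 2.03 and 3.41 on fractions 4-6 after −0.70, −0.77 and −0.88 (2.90, limma adjusted p = 0.0136). Slc6a3 and Th were lowest of the 3 values on fraction 6, while Ddc and Dlk1 were highest there. The calls of Slc6a3, Th and Ddc held without any 1 fraction. With a linear term in fraction number in place of the groups, Slc6a3 and Th lost theirs (limma adjusted p = 0.0674 and 0.0800) and Ddc did not. Dlk1 lost its call without fraction 1, 2 or 5 (adjusted p up to 0.0895), and the list had 3 calls without fraction 1, without fraction 2 or without fraction 5, 5 without fraction 4 and 6 without fraction 6.

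Hypothalamic peptide genes were high on fractions 5 and 6. Of 17 peptide genes tested, 6 were called higher in fractions 4-6, against 7.59% of all genes, and none higher in fractions 1-3 (median 1.20), 8 were highest on fraction 6 and 7 kept their order within fractions 4-6. The in-range minus out-of-range medians of the list were 0.50 (coronal) and 0.21 (sagittal), and the values of Pmch were 2.43 and 2.94. Pmch, the precursor of melanin-concentrating hormone, read −3.11, −3.69 and −4.05, then −2.40, 3.18 and 2.17, a difference of 4.60 (SE 1.20, limma adjusted p = 0.0459) that lay on fractions 5 and 6. Oxt, the oxytocin precursor, read −2.01, −1.84 and −3.32, then −2.91, 2.21 and 4.59. Its groups overlapped through fraction 4, like those of Avp, and its difference of 3.69 (SE 1.56) did not pass the test (limma adjusted p = 0.151). Ghrh, growth hormone releasing hormone, was higher at each step, from −2.83 on fraction 1 to 2.56 on fraction 6, without passing the test (2.72, limma adjusted p = 0.0732). Trh, thyrotropin releasing hormone, rose at every step from −1.37, −0.18 and 0.83 to 1.53, 2.11 and 3.20 (2.52, limma adjusted p = 0.0304). Pmch lost its call without any fraction but 4 (adjusted p up to 0.176) and Trh without fraction 1, 2, 5 or 6 (up to 0.135). The list had 3 calls without fraction 1, 2 without fraction 2, 9 without fraction 4, 1 without fraction 5 and 4 without fraction 6. It had 2, both higher in fractions 4-6, with arrays centred on the median, against 271 of all 14204 genes at that setting.

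Of 21 factors and receptors of the hypothalamus and ventral forebrain tested, 6 were higher in fractions 4-6, 1 was higher in fractions 1-3, against 7.59% and 3.60% of all genes, and 9 kept their order. Calcr, the calcitonin receptor, rose from −3.91, −3.85 and −3.62 to −1.86, −0.26 and 0.38 (3.22, SE 0.49, limma adjusted p = 0.00634). Gpr101, an orphan receptor of hypothalamic neurons, rose from −3.47, −2.69 and −2.30 to −0.92, 0.58 and 0.77 (2.97, limma adjusted p = 0.00707). Both rose at every step and lost their calls only without fraction 2 (adjusted p 0.0610 and 0.0599), and the list as a whole had 1 call without fraction 2, 4 without fraction 5 and 9 without fraction 3. The member higher in fractions 1-3 was Lhx6, a factor of cortical and striatal interneurons, with 6.88, 7.31 and 6.25 against 3.00, 3.69 and 3.90 (−3.28, limma adjusted p = 0.000613). Its in-range arrays were lower by −3.14 in the coronal and −2.29 in the sagittal series, and its other probe gave 0.32 (limma adjusted p = 0.450). Nkx2-1, a factor that specifies the hypothalamus, was above background on fractions 4, 5 and 6 (−3.93, −2.34 and −1.59) and on none of fractions 1-3, which makes it at least 4.31-fold higher in fractions 4-6 with no test. It was the 1 of 13 untested members with that pattern, and the choice fixes its direction. Another 2 were above background on some of fractions 1-3 and on none of fractions 4-6.

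Brainstem genes were highest on fraction 5 more often than on any other. Of 17 genes of hindbrain and brainstem neurons tested, 7 were called higher in fractions 4-6 (4 with arrays centred on the median) and 1 higher in fractions 1-3, against 7.59% and 3.60% of all genes (median 1.29), and 9 were highest on fraction 5. Dbh, the enzyme that makes noradrenaline, read −3.06, −2.64 and −3.84, then 1.00, −0.10 and −0.73 (3.24, SE 0.45, limma adjusted p = 0.00408), so it was highest on fraction 4 and fell at both steps after it. Sncg, a synuclein of motor and sensory neurons, read −1.23, −0.73 and −0.03, then 1.66, 3.15 and 2.34 (3.05, limma adjusted p = 0.00350). Slc18a3, the vesicular acetylcholine transporter, read −1.94, −2.24 and −1.83, then −0.20, 1.43 and 0.30 (2.51, limma adjusted p = 0.00607). Chat, whose enzyme makes acetylcholine in the same neurons, ran the other way, with 0.18, −0.39 and 0.30 on fractions 1-3 and −3.0, −1.56 and −2.33 on fractions 4-6 (−2.33, limma adjusted p = 0.00684). The in-range arrays of Chat were lower by −2.71 in the coronal and −2.51 in the sagittal series, while those of Slc18a3 differed by −1.10 and 0.48. The calls of Dbh, Sncg and Chat held without any 1 fraction, and Slc18a3 lost its call without fraction 2 (adjusted p 0.0599). With a linear term in fraction number in place of the groups, Dbh and Chat lost theirs (limma adjusted p = 0.134 and 0.0884) and Sncg did not. The list had 5 calls without fraction 1, 3 without fraction 2, 4 without fraction 5 and 11 without fraction 3. Its in-range minus out-of-range medians were −1.17 in the coronal series, opposite to the horizontal difference, and −0.08 in the sagittal series.

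Of the 33 measured genes of the hindbrain and brainstem list, 16 could not be tested. Of these, 11 were above background on some arrays of both groups, and 4 on all of fractions 4, 5 and 6 and on none of fractions 1-3. Phox2a, Hoxb4 and Foxa1 (from the dopaminergic list) are named below for the latter pattern. That choice fixes their direction, so they lend no support to a difference of the lists. Across all genes, 43 were above background on every array of fractions 4-6 and on none of fractions 1-3, although fractions 1-3 had more probes above background, and 730 were so in the opposite direction. Phox2a, a factor of noradrenergic and cranial motor neurons, read −2.09, −1.64 and −2.70 on fractions 4, 5 and 6 and was at least 6.00-fold higher there. Hoxb4, which marks the caudal hindbrain, was at least 9.68-fold higher and Foxa1, a factor of the midbrain floor, at least 5.99-fold. These bounds set the mean of fractions 4-6 against, on each array of fractions 1-3, the higher of the probe's own level and the lowest level above background (−4.47, −4.82 and −4.90). Phox2a, Hoxb4 and Foxa1 were all highest on fraction 5. In the coronal series the in-range arrays were lower for Phox2a (−4.11) and Hoxb4 (−6.46), opposite to the horizontal difference, and higher for Foxa1 (1.19). In the sagittal series the differences were −0.62, 1.80 and 1.33.

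Of 13 genes tested that set the transmitter of a neuron, 9 were higher in fractions 4-6 (against 7.59% of all genes, and 6 with arrays centred on the median). Another, Chat, was higher in fractions 1-3, and the median was 1.26. The list shares Th, Slc18a2, Slc18a3, Chat, Tph2, Slc6a5 and Slc17a6 with other lists, so it is not a separate set. Its in-range minus out-of-range medians were 0.57 in the coronal and −0.22 in the sagittal series. Slc32a1, the vesicular GABA transporter, read 3.80, 4.17 and 4.58, then 6.09, 6.73 and 6.20 (2.16, SE 0.26, limma adjusted p = 0.00201), a call that held without any 1 fraction. Its other tested probe differed by 0.47 without passing the test (limma adjusted p = 0.342), and the mean of its probes by 1.31. Fraction 5 held the highest value for 10 of the 13. The list had 4 calls without fraction 2, 5 without fraction 5 and 11 without fraction 3. Of 14 olfactory bulb genes tested, 7 were higher in fractions 4-6 (median 1.35), against 7.59% of all genes and 3 with arrays centred on the median, and the list shares Th, Trh and Calb2 with other lists. Its in-range minus out-of-range medians were 0.63 (coronal) and 0.12 (sagittal). Cdhr1, a cadherin of mitral cells, read −0.77, −0.84 and −0.22, then 1.95, 2.24 and 0.14 (2.05, limma adjusted p = 0.0371). Omp, a protein of olfactory sensory axons, read −2.85, −3.10 and −3.09, then −0.86, 0.43 and −1.21 (2.46, limma adjusted p = 0.00701). Cdhr1 lost its call without fraction 1, 2, 4 or 5 (adjusted p up to 0.165) and Omp without fraction 2 (0.0644). The olfactory list had 2 calls without fraction 1, 1 without fraction 2, 4 without fraction 4 and 2 without fraction 5.

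Of 18 thalamic and habenular genes tested, 2 were higher in fractions 4-6, against 7.59% of all genes, and none in fractions 1-3 (median 0.82). One of them was Calb2, the calcium-binding protein calretinin, at −1.80, −1.55 and −0.29, then 0.60, 0.56 and 0.71 (1.83, limma adjusted p = 0.0184). Of 20 astrocyte genes, all tested, 6 were higher in fractions 4-6, against 7.59% of all genes, and none in fractions 1-3 (median 0.80), and 11 were highest on fraction 6. With arrays centred on the median 3 were higher in fractions 4-6, against 271 of all 14204 genes at that setting. The in-range minus out-of-range medians of the astrocyte list were −0.21 (coronal) and 0.27 (sagittal). Agt, angiotensinogen, read −0.70, −1.09 and 0.04, then 0.92, 1.34 and 1.74 (1.92, SE 0.33, limma adjusted p = 0.0102). S100b, a calcium-binding protein, rose at each step from 3.12 on fraction 1 to 5.46 on fraction 6 (1.42, limma adjusted p = 0.0371). Slc6a11, a GABA transporter, peaked on fraction 5 (1.66, limma adjusted p = 0.0152). None of the 20 astrocyte genes was called without fraction 2, 1 was without fraction 5, 2 were without fraction 1, 4 without fraction 6 and 13 without fraction 3. Agt lost its call without fraction 2 (adjusted p 0.0652), Calb2 and Slc6a11 without fraction 1, 2 or 5 (up to 0.109 and 0.0951) and S100b without fraction 1, 2, 5 or 6 (up to 0.162). For the thalamic list none was called without fraction 1, fraction 2 or fraction 5, 1 without fraction 4 and 7 without fraction 3. The in-range minus out-of-range medians of the thalamic list were 0.45 (coronal) and 0.47 (sagittal), in the direction of its horizontal median.

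**Figure D4:**
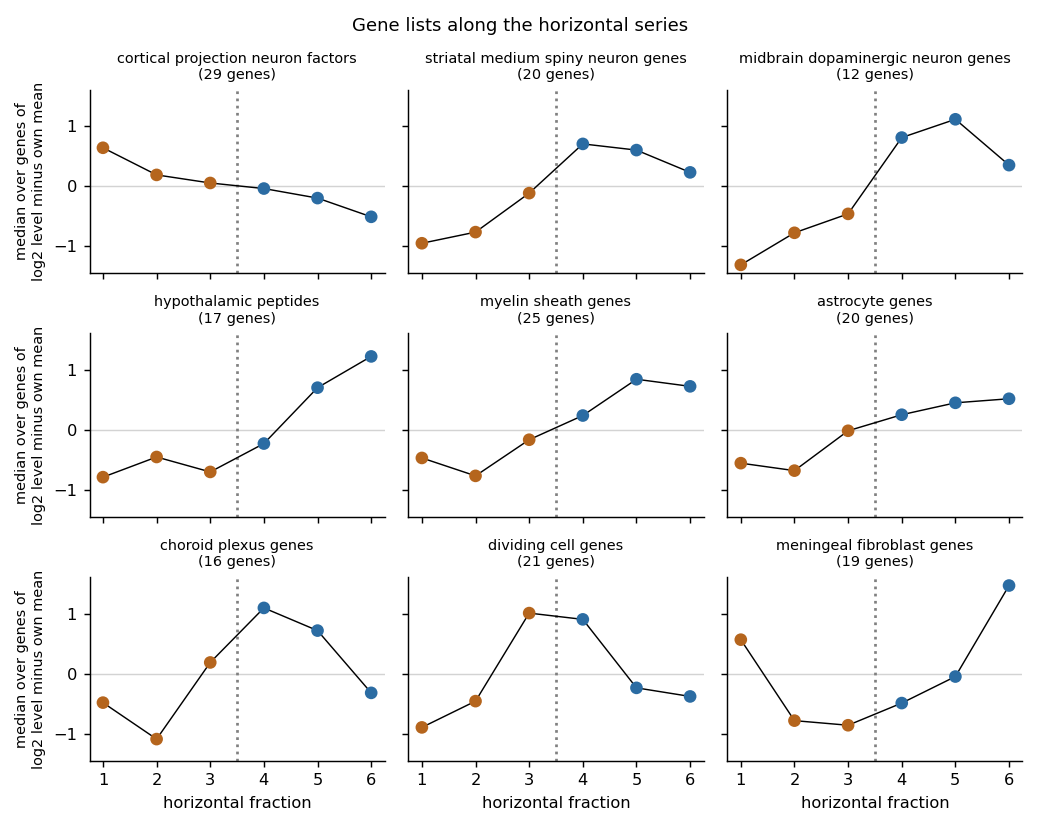
Median over the tested genes of 9 lists of the log2 level minus each gene's own mean over the 6 fractions, against the number of the horizontal fraction, 1 array per point, with brown points for fractions 1-3 and blue points for fractions 4-6. The cortical median falls along the series, the striatal and dopaminergic medians are highest on fractions 4 and 5, the myelin median on fractions 5 and 6, and the meningeal list is high at both ends (0.57 on fraction 1 and 1.47 on fraction 6).

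Other lists followed the series without separating the groups. Genes of meningeal fibroblasts, which cover the surface of the brain, were lowest inside and high at both ends. None of 19 was called by limma at an adjusted p under 0.05 (3 at an unadjusted p under 0.05, all higher in fractions 4-6), all 19 were highest on fraction 6, and 18 kept the order of their difference within fractions 4-6. Their summed level (log2 of the sum of the linear levels) ran from 7.72 to 9.51 on fractions 1-3 and from 8.53 to 10.12 on fractions 4-6, and its part in the other results was not tested. The in-range minus out-of-range medians of the meningeal list were 0.45 (coronal) and 0.53 (sagittal). Slc6a13, a GABA transporter of the meninges, read 3.28, 1.66 and 1.52, then 2.33, 2.70 and 4.38 (0.99, limma adjusted p = 0.301), Slc13a4, a sulfate transporter, 3.14, 1.45 and 1.74, then 2.41, 2.95 and 4.40, and Col1a1, a collagen chain, 2.57, 1.69 and 1.78, then 2.14, 3.19 and 4.24. Genes of dividing cells were highest in the middle of the series, 14 of 21 on fraction 3 and 6 on fraction 4. Ccna2, a cyclin, read −0.08, 0.75 and 2.51, then 2.51, 1.36 and 0.96 (0.55, limma adjusted p = 0.586), and Plk1, a mitotic kinase, 0.39 on fraction 2, 2.36 on fraction 4 and 0.77 on fraction 6. Tyms, thymidylate synthase, was the 1 of 21 dividing-cell genes called, against 3.60% of all genes, higher in fractions 1-3 (−1.23, limma adjusted p = 0.0285) and not without fraction 2, 5 or 6 (adjusted p up to 0.115). Its difference was −0.46 after quantile normalization and −0.55 with normexp background correction, and neither passed the test (limma adjusted p = 0.242 and 0.0872). Its in-range arrays differed by −1.05 in the coronal and 0.35 in the sagittal series. The median of the dividing-cell list was 0.18, or −0.07 with arrays centred on the median.

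Choroid plexus genes, which mark the epithelium that makes cerebrospinal fluid in the ventricles, were highest on fraction 4 for 11 of 16, and 10 ran opposite to their difference within fractions 4-6. Ttr, transthyretin, read 3.26, 4.18 and 7.24, then 7.57, 7.21 and 5.22 (1.77, SE 0.98, limma adjusted p = 0.256), with fraction 3 as high as fraction 5. Clic6 and Kcne2, an intracellular chloride channel and a potassium channel subunit of the same epithelium, differed by 1.97 and 1.81 without passing the test (limma adjusted p = 0.0782 and 0.276). With no scaling Ttr, Clic6 and Kcne2 were called (limma adjusted p = 0.000355, 4.24e-05 and 0.000246). Of the 16, 2 were higher in fractions 4-6, against 7.59% of all genes. The count was 0 with arrays centred on the median, against 271 of all 14204 genes there, and 9 with no scaling, against 494. Another of the 16, the prolactin receptor Prlr, was higher in fractions 1-3, against 3.60% of all genes (−1.55, limma adjusted p = 0.00957). Prlr was lower on the in-range arrays of the coronal (−1.40) and sagittal (−1.35) series, its other probe gave 0.24 (limma adjusted p = 0.515), and its call was lost without fraction 2 (adjusted p 0.0698). The choroid plexus list had no call without fraction 2, 1 without fraction 1, 1 without fraction 5, 5 without fraction 6 and 8 without fraction 3. Of 21 cerebellar genes tested, 1 was called higher in fractions 4-6, against 7.59% of all genes, and none with arrays centred on the median. It was Slc1a6, the glutamate transporter of Purkinje cells (1.17, limma adjusted p = 0.0352, lost without fraction 1, 2, 4 or 5 with adjusted p up to 0.147). Atoh1, the factor of granule cell precursors, was at −2.94 on fraction 1, 0.34 on fraction 3 and −4.08 on fraction 6 (−1.38, limma adjusted p = 0.356). Its in-range arrays were lower by −4.55 in the coronal series and differed by 0.38 in the sagittal series.

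Markers of the pituitary, blood and sensory ganglia were measured as well. Of 16 pituitary genes, 2 were above background on all 6 arrays, and their summed level was 0.96 to 1.88 on fractions 1-3 and 0.81 to 2.71 on fractions 4-6. Cga, the common subunit of pituitary glycoprotein hormones, was above background on fraction 6 alone, at 3.01 there and between −5.93 and −6.97 on the others. Pomc, which hypothalamic neurons also make, was highest on fraction 6 at 2.66 and lay between 0.68 and 1.72 on the others. Lhb, a hormone subunit, was higher in fractions 1-3 (−1.30, limma adjusted p = 0.0480), at −1.36, −0.91 and −2.21 against −3.18, −2.79 and −2.41, and it lost its call without any fraction but 3 (adjusted p up to 0.176). Its difference was −0.75 after quantile normalization (limma adjusted p = 0.152) and −0.80 with normexp (0.0831), and its call was lost with median centring and with no scaling too. The in-range arrays of Lhb differed by −1.05 in the coronal and −0.14 in the sagittal series. None of 8 red blood cell genes was called by limma (0 at an unadjusted p under 0.05, median −0.17), and Hbb-bt, a beta globin, read 6.21, 5.06 and 5.36, then 5.42, 4.66 and 5.82. The summed level of the red blood cell list ran from 8.28 to 9.38 on fractions 1-3 and from 8.36 to 9.16 on fractions 4-6. Of 7 genes of sensory ganglia tested, 2 were higher in fractions 4-6 against 7.59% of all genes (1 with arrays centred on the median), and 1 of them was Sncg. The median of this list was 0.74, and its summed level was 3.53 to 3.89 on fractions 1-3 and 4.58 to 5.67 on fractions 4-6. The 3 lists were not tested for a part in the other results. Of 10 factors of the midbrain tectum tested, 1 (Bhlhe22) was higher in fractions 1-3 and 1 in fractions 4-6, shares near the 3.60% and 7.59% of all genes (median −0.24).

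Of 15 microglia genes, all tested, 2 were higher in fractions 1-3 and 1 in fractions 4-6, against 3.60% and 7.59% of all genes, with a median of 0.58 beside 0.23 for all genes, and 7 were called without fraction 3. The 2 were Itgam, a complement receptor subunit, at 7.99, 8.16 and 7.53 against 4.76, 5.18 and 5.12 (−2.87, limma adjusted p = 0.000191), and Siglech, a sialic acid receptor, at 8.16, 7.95 and 7.89 against 6.03, 5.95 and 6.56 (−1.82, limma adjusted p = 0.00177). The other probes of Itgam gave −1.07 (limma adjusted p = 0.0127) and −0.21 (0.490, not called), and that of Siglech gave −0.39 (0.261, not called). Cx3cr1, the fractalkine receptor of the same cells, read 2.27, 2.42 and 3.54, then 3.79, 3.84 and 4.06 (1.15, limma adjusted p = 0.0562), and 12 of the 15 were highest on fraction 6. Rsph4a, a radial spoke protein, was the 1 of 11 motile cilia genes higher in fractions 1-3 (−3.22, limma adjusted p = 0.00544), 1 other was higher in fractions 4-6, and 9 of the 11 differences were positive (median 0.80), against 3.60% and 7.59% of all genes called. Of 14 genes of all neurons, 1 was higher in fractions 1-3 and 3 were higher in fractions 4-6, against 3.60% and 7.59% of all genes, with 5 negative and 9 positive differences and a median of 0.14 (−0.11 with arrays centred on the median). Snap25, a synaptic fusion protein, was higher in fractions 1-3, at 7.92, 8.15 and 7.60 against 4.87, 5.31 and 5.18 (−2.77, limma adjusted p = 0.000177). Syp, synaptophysin, was higher in fractions 4-6, at 4.16, 3.94 and 4.07 against 5.64, 6.04 and 5.40 (1.63, limma adjusted p = 0.00290). The in-range arrays were lower in the coronal and sagittal series by −2.79 and −2.11 for Itgam, −1.75 and −0.73 for Siglech, −2.39 and −2.53 for Rsph4a and −2.66 and −2.09 for Snap25, and they differed by 1.28 and 0.05 for Syp. None of 13 genes used by every cell was called by limma (3 at an unadjusted p under 0.05), with differences from −0.46 to 0.56 around a median of 0.17 (−0.09 with arrays centred on the median). Of 20 endothelial and pericyte genes, 1 was higher in fractions 1-3 and 2 in fractions 4-6 (median 0.34), shares near the 3.60% and 7.59% of all genes, and none was called without fraction 2, without fraction 4 or without fraction 5.

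Ecel1, an endopeptidase of neurons, was also among the 10 largest toward fractions 4-6, at −0.37, −0.08 and 0.55 against 2.99, 4.14 and 4.07 (3.70, SE 0.36, limma adjusted p = 0.000526). Named here from those 10 are Mobp, Pmch, Slc6a3, Mag, Slurp2, Ecel1, Penk, Dbh and Calcr. In 1 of the 10, Calcr, the levels went on rising within fractions 4-6, and in Dbh they fell at both steps. Slurp2 and Pmch were higher by at least 1 log2 unit on the in-range arrays of both other series, and the remaining 8 were not.

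**Figure D5:**
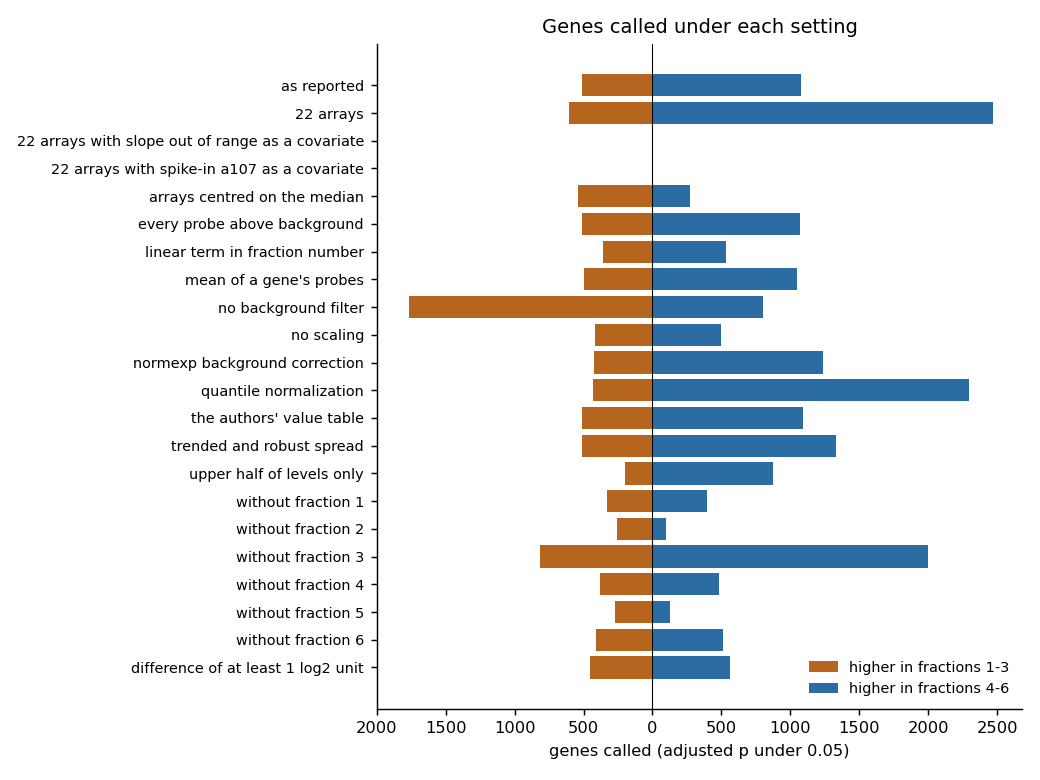
Number of genes called at an adjusted p under 0.05 under each setting, with genes higher in fractions 1-3 to the left and genes higher in fractions 4-6 to the right of 0. As reported the counts are 511 and 1078, and both are 0 in the fits over 22 arrays that take the spike-in slope or spike-in a107 as a covariate. Both covariates divide the horizontal arrays by group, so these fits have little power to call genes.

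A fit over all 22 arrays, with linear and squared terms for slab position in the coronal and sagittal series, called 606 genes higher in fractions 1-3 and 2471 higher in fractions 4-6. With the slope out of range added as a covariate, limma called no gene at an adjusted p under 0.05 (1100 at an unadjusted p under 0.05), and with spike-in a107 added it called none (347 unadjusted). Within the horizontal series the slope splits the arrays as the groups do, so its covariate is estimated from the coronal and sagittal arrays alone. Its uncertainty enters the group difference in full, and a lack of calls there cannot tell lost power from lost differences. Spike-in a107 also divided the horizontal arrays by group. The size of the differences moved unequally in the fit with the slope. Those of Penk (3.44), Calcr (4.22), Gpr101 (3.12), Slc32a1 (2.01), Emx1 (−1.39) and Neurod6 (−1.34) were larger than or close to those in the 6 arrays, and those of Mobp (3.17), Mag (2.85) and Th (1.62) were smaller. Those of Tssk5 (−0.59, from −8.31), Shc4 (−1.02, from −6.56), Ermn (−0.47, from −4.21) and Chat (−0.54, from −2.33) lost most of their size, and that of Fezf2 turned from −1.48 to 0.51. None of these 14 genes passed the test there.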

How the data were processed

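Total RNA of each slab was labelled with Cy3 and hybridised in 1 colour to Agilent SurePrint G3 Mouse arrays. The authors deposited scanner files of Agilent Feature Extraction (10.10.1.1), whose processed signal is a background-subtracted intensity, and a log2 table, deposited by the authors, that equalled log2 of that intensity minus the array's 75th percentile within 0.02 for 100% of the values compared. Here log2 intensity minus the 75th percentile was computed again for 55600 probes. Of 28087 RefSeq probes, 19157 were above background on all 6 horizontal arrays, a filter that leaves out genes silent in any slab. Groups were compared with limma 3.58.1 (R 4.3.3; lmFit, eBayes), with Benjamini-Hochberg adjustment over these probes and a threshold of 0.05, and each gene was read from its probe with the highest median level. On simulated data for this comparison (200 of 19157 probes changed), 0% of changes of 1 log2 unit, 86.5% of changes of 2 and 93% of changes of 3 were recovered, so smaller differences could be missed. In the data 2078 probes were called, which makes the adjusted threshold less strict than in the simulation. Of the 1078 genes called higher in fractions 4-6, 561 differed by at least 1 log2 unit, and of the 511 higher in fractions 1-3, 456 did. The rest were called at smaller differences. The number of arrays limits the precision, with 4 residual degrees of freedom. Genes named were the 4 markers, the 10 largest in each direction among called genes and up to 4 members of each of 26 lists with the largest absolute difference, and list members below background on some array were named without a test. Some genes that this rule names are not reported here. The members, lists and markers were chosen with earlier results of these data known. Alternatives were another scaling (median, quantile, none), normexp on the median spot and background signals (the files analysed have no mean signal column), the authors' table, other filters, other probes, a trended robust spread, fits over 22 arrays with and without a spike-in covariate, a linear term in fraction number, a threshold of 1 log2 unit, and leaving out each fraction. Promoter windows came from RefSeq.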

Additional observations from a re-analysis of the deposited data

Results flagged for a closer look

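Signal outside the RefSeq probes also separated the groups. Of 8395 probes with no RefSeq identifier that were above background on all 6 horizontal arrays, limma called 1312 (15.6%) higher in fractions 1-3 and 328 (3.91%) higher in fractions 4-6, with an adjusted p under 0.05 over all probes above background. Their median difference was −0.20, against 0.21 for the RefSeq probes tested. Of the 1312, 557 (42.5%) were also lower by at least 1 log2 unit on the in-range arrays of both the coronal and the sagittal series. These probes entered no comparison of the report, and the part of the spike-in slope in them was not tested.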

How the results depend on the processing

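The total of 1589 called genes (321 keeping their order within fractions 4-6) became 811 (149) with arrays centred on the median, 2720 (581) after quantile normalization, 910 with no scaling, 2565 with no background filter, 890 with a linear term in fraction number and 1017 (201) with a difference of at least 1 log2 unit. It became 3077 (695) in the fit over 22 arrays and 0 (0) with the slope out of range or with spike-in a107 as a covariate, where limma called 1100 and 347 genes at an unadjusted p under 0.05. Both covariates divide the horizontal arrays by group, so the fits with them had little power. Leaving out 1 fraction gave 353 to 2810 called genes and 44 to 648 that kept their order, the order being that of the 2 remaining fractions where 1 of fractions 4-6 was left out. The share of calls higher in fractions 4-6 was 67.8%, and became 33.4% with arrays centred on the median, 84.3% after quantile normalization, 54.3% with no scaling, 31.1% with no background filter and 81.4% (201 and 877 genes) with only the upper part of the levels tested. Of the 73 named genes that were tested, Adora2a, Cdhr1, Lhb, Pmch, Ppp1r1b, S100b, Slc1a6, Sox10, Trh and Zfp503 lost their calls with arrays centred on the median, Bhlhe22, Bok, Lhb and Tyms with no scaling, Lhb, Pmch and Tyms with normexp, Lhb and Tyms after quantile normalization, and Prlr with the mean of its probes. With a linear term in fraction number 15 of the 73 lost their calls, among them Slc6a3, Th, Dbh, Chat, Cspg4, Prlr, Adora2a, Tyms and Lhb. With no background filter 6 did, among them Bhlhe22, S100b, Pmch, Adora2a and Lhb. With a trended robust spread 4 did, among them Pmch, Trh and Adora2a. Calls were gained by 10 with no scaling, 5 with a linear term and 5 in the fit over 22 arrays. Normexp also made the differences of Calcr (1.75), Gpr101 (1.77), Dbh (2.04) and Omp (1.61) smaller by over 1.5 times with their calls kept. With the slope as a covariate the direction turned for Fezf2 (0.51), Ccna2 (−0.061), Plk1 (−0.11), Col1a1 (−0.0087), Slc6a13 (−0.26) and Snap25 (0.018). With a107 as a covariate it turned for Fezf2 (0.10), Chat (0.46), Ermn (0.93), Prlr (0.49), Col1a1 (−0.73), Slc6a13 (−0.54), Lhb (0.022), Tssk5 (3.25), Tbx22 (1.61), Cd300lf (1.84), Shc4 (1.86), St6galnac1 (1.96), Dcaf12l2 (2.39), Slfn9 (1.43), Gm10375 (2.38), BC061237 (1.92), Cabp5 (2.17), Slurp2 (−0.55), Lhx6 (1.30), Itgam (1.30), Siglech (0.75), Snap25 (1.23), Rsph4a (1.12) and Atoh1 (0.18). Another probe of the gene gave the opposite direction for Ermn (0.50), Prlr (0.24), Shc4 (0.34) and Lhx6 (0.32). Of the 16 genes with another tested probe, the first other probe kept the direction and the side of the threshold in 8, among them Slfn9 (−3.92), Rsph4a (−1.44) and Itgam (−1.07), which stayed called (the second other probe of Itgam, −0.21, was not), and Cx3cr1 (0.79), which was called with neither probe. It kept the direction without the call in 4. Pomc turned with arrays centred on the median (−0.029). With 1 fraction left out, Pomc ranged from −0.42 (without fraction 6) to 0.57, Ccna2 from −0.018 (without fraction 1) to 1.28, and Hbb-bt from −0.50 to 0.091 (without fraction 1), with 0.078 without fraction 5. The causes were not tested. No paired analysis was possible because the number of a horizontal fraction is its position in the brain and the groups share none.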
